A study of Mus musculus with 30 samples.

Results

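The 10 genes listed here as enzymes of nucleotide and polyamine synthesis were followed in mammary carcinomas of Myc transgenic mice. They were chosen by name: Odc1 and Srm of the polyamine pathway, Cad, Umps and Ctps of pyrimidine synthesis, Ppat, Gart, Paics and Impdh2 of purine synthesis, and Nme1, which works on both kinds of nucleotide. Of these 10 genes 9 had a probe annotated to that symbol alone, among 15096 genes with such a probe in the whole series, and Impdh2 is not analysed here. The 9 genes had 11 of the 22800 probes, since Ppat and Umps had 2 each.

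The data are 30 dual-channel arrays of 15 RNA extracts, each hybridised on 1 array in channel 1 and on 1 in channel 2, and all were set against a common reference RNA. An extract code such as 579-B holds a number and a letter. There are 5 extracts of number 579 and 2 of number 546, and each of the other 8 numbers has 1. Per the labels, 12 extracts come from work on the transition of epithelial to mesenchymal cells, 550-A and 561-B from work on tumour progression, and 595-A carries 1 description on each array. All extracts share the Myc transgene. The promoter that drives it, the strain, age and treatment of the mice, the make-up of the reference, and whether extracts came from separate animals were not stated in the labels. The p-values below therefore measure the spread between these extracts, part of which may be technical, or, in the test between extracts, that between arrays of 1 extract.

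Values are log2 ratios to the reference, averaged over the 2 arrays of an extract after the sign of arrays with the extract in channel 2 was turned. The numerator of the ratio is not named in the labels. Paired arrays correlated at r from -0.43 to 0.05 before the turn, against medians of 0.53 between extracts in 1 orientation. The side on which the Myc probe lay in all 15 extracts, at 3.16 ± 0.11 (SE, n = 15), is called the Myc side, and values on it lie toward Myc. From the design it is likely the side on which the carcinoma extract exceeded the reference, which is a basis and not a proof. Arrays held 13434 to 21991 measured values, with the fewest on those of 546-A (14643 and 16089) and 548-A (16587 and 13434). As a check of the labelled tissue, 8 of 8 tested epithelial marker genes passed on the Myc side. So did the 3 tested of 5 genes listed for milk, the casein genes Csn2 and Csn3 and the transcription factor gene Elf5.

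Polyamines are small charged molecules that cells need for growth. Odc1 encodes ornithine decarboxylase, which makes putrescine and is the rate-limiting enzyme of the pathway, and Srm encodes spermidine synthase, which acts next. Nucleotides are built either from simple precursors (de novo) or by salvage of bases and nucleosides. Several of these enzymes, Odc1 and Cad above all, are textbook targets of Myc, which binds the DNA letters CACGTG, the E-box.

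Promoter windows from RefSeq (build GRCm38.p6), running from upstream of the annotated gene start to just inside the gene, were available for 8 of the 9 measured genes. A search of both strands for CACGTG, whose reverse complement is itself, found it in 2 of these 8 genes, Nme1 and Paics, against 7.15% of all 32851 windows. In Nme1 it lies 18 bases before the first annotated start and again, in the window of the other start, 29 bases before that one. In Paics it lies 203 bases before the start. The variant CACGCG was found in Odc1 alone of the 8, in 2 copies, and in 9.27% of all windows. It does not overlap CACGTG. Paics and Ppat are neighbours read from opposite strands, with annotated starts 276 bases apart. The windows of Nme1, Paics and Ppat are shown because these genes carry the E-box or share a start region. All are written 5′ to 3′ on the gene's own strand, with CACGTG in capitals. Nme1 is at chr11:93968223-93968522 (minus strand), Paics at chr5:76951052-76951351 (plus strand) and Ppat at chr5:76951529-76951828 (minus strand).
Nme1: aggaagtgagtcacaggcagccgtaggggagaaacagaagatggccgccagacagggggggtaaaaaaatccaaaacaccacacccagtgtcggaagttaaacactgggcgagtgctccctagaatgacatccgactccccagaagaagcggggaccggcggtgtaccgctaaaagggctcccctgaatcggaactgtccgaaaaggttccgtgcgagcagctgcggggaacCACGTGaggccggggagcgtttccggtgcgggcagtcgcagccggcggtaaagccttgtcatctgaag
Paics: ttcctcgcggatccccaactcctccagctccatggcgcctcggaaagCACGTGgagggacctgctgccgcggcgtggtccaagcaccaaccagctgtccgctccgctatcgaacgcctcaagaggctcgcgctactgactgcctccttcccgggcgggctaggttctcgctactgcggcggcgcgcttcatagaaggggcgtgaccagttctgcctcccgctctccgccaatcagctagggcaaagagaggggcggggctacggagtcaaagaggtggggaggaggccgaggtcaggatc
Ppat: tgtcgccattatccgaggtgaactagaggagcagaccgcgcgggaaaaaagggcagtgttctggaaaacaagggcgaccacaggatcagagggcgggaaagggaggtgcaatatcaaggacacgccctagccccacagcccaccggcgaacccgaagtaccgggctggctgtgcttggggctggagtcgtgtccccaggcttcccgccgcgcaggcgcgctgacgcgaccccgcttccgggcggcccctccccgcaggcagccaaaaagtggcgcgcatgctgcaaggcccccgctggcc
A match is only a description of these letters in the window, and binding was not measured. Sequence outside the windows was not searched, so a gene without a match there may hold one elsewhere. Matches are counted by gene for the members, where Nme1 and Ctps have 2 windows each, and by window in the percentages.

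Against the reference, Srm, Nme1, Cad, Odc1 and Gart lay on the Myc side, by 1.79-fold to 2.48-fold, while Ppat, Umps, Ctps and Paics did not pass the test. The test was limma's on the 15 extract means against 0, with adjustment over all 12888 probes that had enough values, and an adjusted p under 0.05 counts as passing. It leaves out the spread of the reference, which is 1 RNA. In bulk RNA of a tumour, more cells of a type and more RNA per cell cannot be told apart. Of the 11 probes 10 were tested, and 5 of them, for 5 of the 9 genes, passed on the Myc side, where 30.4% of all tested probes did. On the opposite side 0 of the 10 passed, against 16.9% of all probes. The median of the 10 probe means was 0.62, and that of all probes 0.13. Once the median of each array was subtracted these medians were 0.49 and 0.00, with 5 probes past the threshold toward Myc and 1, Paics, away from it.

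**Figure D1:**
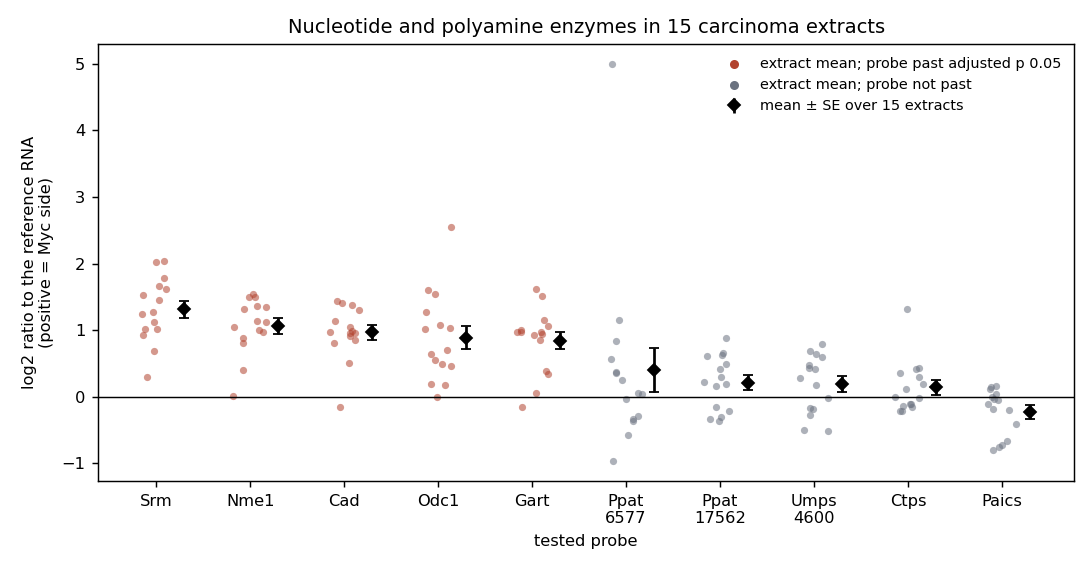
Mean log2 ratio to the reference of each of the 15 extracts (points) for the 10 tested probes, with the mean ± SE beside them (diamonds); numbers under Ppat and Umps are probe names. The points of Srm and Nme1 all lie above 0, those of Cad, Odc1 and Gart do so but for 1 extract each, and 11 of the 15 Paics points lie below 0.

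In the polyamine pathway both members lay on the Myc side. Odc1 ran from -0.01 in 550-A over a median of 0.70 to 2.55 in 546-A, and 14 of 15 extracts were on the Myc side. The value of 546-A stood apart from the next highest, 1.61 in 597-B. Its mean was 0.89 ± 0.17 (SE, n = 15), a 1.85-fold difference (limma adjusted p = 0.000307). Without 546-A the mean was 0.77 and still passed. For Srm the extracts ran from 0.29 in 546-A over a median of 1.27 to 2.04 in 597-B, all 15 on the Myc side. The mean of 1.31 ± 0.13 was a 2.48-fold difference (limma adjusted p = 3.2e-07), the largest of the members. Extract 546-A was thus the highest for Odc1 and the lowest for Srm, but its arrays were among those with the fewest measured values. With 546-A and 548-A left out, Odc1 averaged 0.71 and Srm 1.42, and both passed.

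Of Cad, Umps and Ctps, the enzymes of pyrimidine synthesis, Cad alone passed. Cad encodes the enzyme with 3 activities that starts pyrimidine synthesis. It ran from -0.15 in 540-B over a median of 0.97 to 1.43 in 561-B, with 14 of 15 extracts on the Myc side and all but 540-B and 550-A at 0.81 or more. The mean was 0.97 ± 0.11, a 1.96-fold difference (limma adjusted p = 1.92e-06). The 2 arrays of 540-B did not agree, at -1.0 with the extract in channel 1 and 0.70 with it in channel 2.

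Umps encodes the enzyme that ends the making of UMP, and Ctps encodes CTP synthase, which turns UTP into CTP. Umps by probe 4600 ran from -0.51 in 550-A over 0.29 to 0.79 in 597-B, with 9 extracts on the Myc side and 6 on the other, a mean of 0.19 ± 0.12 (limma adjusted p = 0.207). Its other probe, 21861, had values on 20 arrays and was not tested. Of those 20 values 13 equalled the log2 of a ratio of small whole numbers, and they gave extract means from -3.17 to 1.61. Ctps ran from -0.22 in 579-D over -0.01 to 1.32 in 561-B, with 7 of 15 extracts on the Myc side and a mean of 0.14 ± 0.11 (limma adjusted p = 0.311). The value of 561-B stood apart there too, since the next highest was 0.43 in 546-A.

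Nme1 encodes a nucleoside diphosphate kinase, which turns diphosphates of nucleosides into triphosphates. Every extract was on the Myc side, from 0.00 (0.004) in 550-A over a median of 1.13 to 1.55 in 579-D, and the value of 540-B rested on 1 array. Next lowest was 546-A at 0.40, and the 13 other extracts lay at 0.81 or more. The mean was 1.06 ± 0.12, a 2.09-fold difference (limma adjusted p = 1.03e-06). Nme1 and its neighbour Nme2 are close in sequence, and which of them the probe reads was not checked, since probe sequences were not used here.

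The purine enzymes differed among themselves. Ppat encodes the amidotransferase that commits the cell to purine synthesis, Gart an enzyme of several early steps, and Paics the enzyme of the steps that follow. Gart ran from -0.16 in 550-A over 0.97 to 1.62 in 579-B, with 14 of 15 extracts on the Myc side. Its mean was 0.84 ± 0.13, a 1.79-fold difference (limma adjusted p = 4.43e-05). Besides 550-A the extracts 579-D (0.06), 579-E (0.34) and 548-A (0.38) were low and the other 11 lay from 0.85 to 1.62. The 0.85 of 546-A rested on 1 array, that with the extract in channel 2, where Gart averaged higher (1.30 against 0.35 in channel 1).

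Neither Ppat probe passed, and the values of probe 6577 spread widely. By probe 17562 the extracts ran from -0.37 in 579-D over 0.22 to 0.88 in 548-A, 10 on the Myc side, with a mean of 0.21 ± 0.11 (limma adjusted p = 0.136). By probe 6577 they ran from -0.97 in 550-A over 0.06 to 5.0 in 546-A, 9 on the Myc side, with a mean of 0.40 ± 0.33 (limma adjusted p = 0.335). The value of 546-A rested on 1 array, the next highest was 1.15 in 561-B, and without 546-A the mean was 0.08. In 546-A the 2 probes of this gene lay on different sides, at 5.0 and -0.15.

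Among the tested probes that of Paics lay farthest toward the opposite side. Its extracts ran from -0.80 in 579-D over -0.10 to 0.16 in 595-A, 11 of 15 on the opposite side, with a mean of -0.23 ± 0.10 (limma adjusted p = 0.0709). The low end was made by 4 extracts, 579-D, 550-A (-0.76), 548-A (-0.72) and 561-B (-0.67), followed by 579-B at -0.41, and the other 10 lay between -0.20 and 0.16. After array medians were subtracted the mean was -0.36 and passed on the opposite side (limma adjusted p = 0.00262). It also passed, at the same mean as before, where only probes on all 30 arrays were tested (limma adjusted p = 0.0464). Its call thus rests on the level given to each array and on how many probes are tested.

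The 2 arrays of an extract gave alike values for some members and not for others. Nme1 averaged 1.04 with the extract in channel 1 and 1.06 with it in channel 2, Cad 0.89 and 1.05, Srm 1.5 and 1.12, and Paics -0.20 and -0.26. For Odc1 the means were 1.39 and 0.38, with the channel 1 array higher in 14 of 15 extracts, and both passed (limma adjusted p = 9.67e-05 and 0.0282). Gart went the other way, at 0.35 and 1.30, and passed in channel 2 (limma adjusted p = 2.19e-05) but not in channel 1 (0.0516). Ctps changed side, at 0.53 in channel 1, which passed (limma adjusted p = 0.00207), and -0.24 in channel 2, which did not (0.2). The channel difference was larger than that of 66.9% of all tested probes for Odc1, 66.1% for Gart and 58.1% for Ctps, and smaller than that of nearly all for Nme1. Over all probes, 64.3% of calls lay toward Myc with both arrays averaged, 50.9% after array medians were subtracted, and 41.3% and 76.1% with the extract in channel 1 alone and in channel 2 alone. Averaging the 2 orientations cancels a difference of this kind where both arrays have a value.

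**Figure D2:**
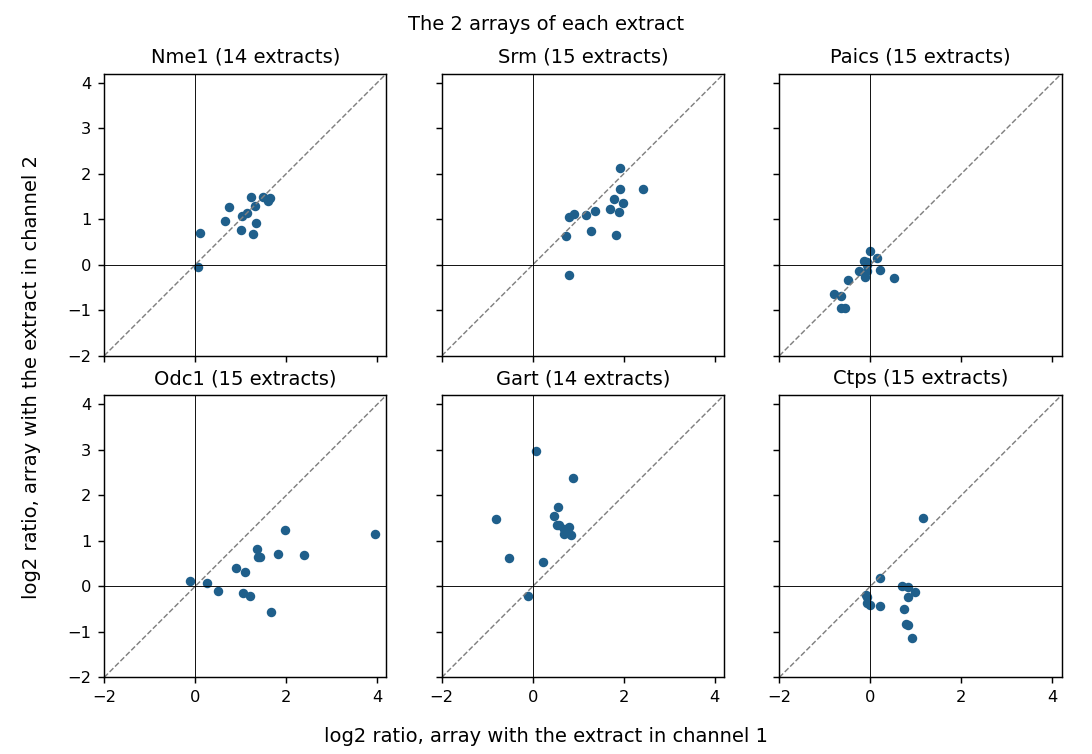
Log2 ratios on the 2 arrays of each extract for 6 genes, with the extract in channel 1 on the horizontal axis and in channel 2 on the vertical axis (1 point an extract, dashed line for equal values). Points of Nme1 and Paics scatter about the line, those of Srm, Odc1 and Ctps lie mostly below it, those of Gart mostly above it, and those of Ctps lie at positive values in channel 1 and negative ones in channel 2 for many extracts.

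Differences between the carcinoma extracts were then tested on the single arrays by limma's F-test, whose error is the difference between the 2 arrays of 1 RNA. Of the 10 member probes 0 passed, where 6.73% of all probes did, and 4 had an unadjusted p under 0.05, as did 22% of all probes. These were Ppat by probe 6577 (limma adjusted p = 0.0628), Srm (0.0825), Odc1 (0.147) and Paics (0.171). Srm passed where only probes on all 30 arrays were tested (limma adjusted p = 0.0313), and probe 6577 of Ppat passed after array medians were subtracted (0.0187). The SD over the 15 extracts was 0.67 for Odc1, 0.49 for Srm and for Gart, 0.42 for Nme1, 0.40 for Cad and 0.35 for Paics. The SD of a single array about its extract, as moderated by limma and with the channel difference of the probe taken out, was 0.56 for Odc1, 0.57 for Gart, 0.37 for Srm, 0.32 for Nme1, 0.45 for Cad and 0.30 for Paics. It was largest for Umps (probe 4600) and for Ppat by probe 6577, at 0.82 each, with SDs over extracts of 0.44 and 1.38. For Ctps these SDs were 0.50 for an array and 0.40 over extracts, and for Ppat by probe 17562 they were 0.44 and 0.41.

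Extract by extract, the 5 genes that passed did not rank the carcinomas alike. Their mean was lowest in 550-A, at 0.20, where 3 of the 5 were on the Myc side, and highest in 597-B (1.48) and 561-B (1.40). In 13 of 15 extracts all 5 were on the Myc side, the others being 550-A and 540-B. The 5 genes were picked because their means over these same extracts passed on that side. A high count therefore follows from the choice and is not separate evidence. Of the 10 tested member probes, passed or not, from 3 (in 550-A) to 9 (in 561-B among others) lay on the Myc side. With each array centred on its median 550-A stayed lowest, at 0.38, and 597-B highest, at 1.18, while 561-B stood at 0.95, eighth from the top. The medians of the 561-B arrays over all tested probes were 0.41 and 0.49. Myc was also lowest in 550-A, at 2.38, but the other extracts did not all rank alike. Myc stood at 3.63 in 561-B but at 2.87 in 597-B, below its median of 3.07. In 579-D Myc stood at 3.63, where the 5 genes averaged 0.78.

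**Figure D3:**
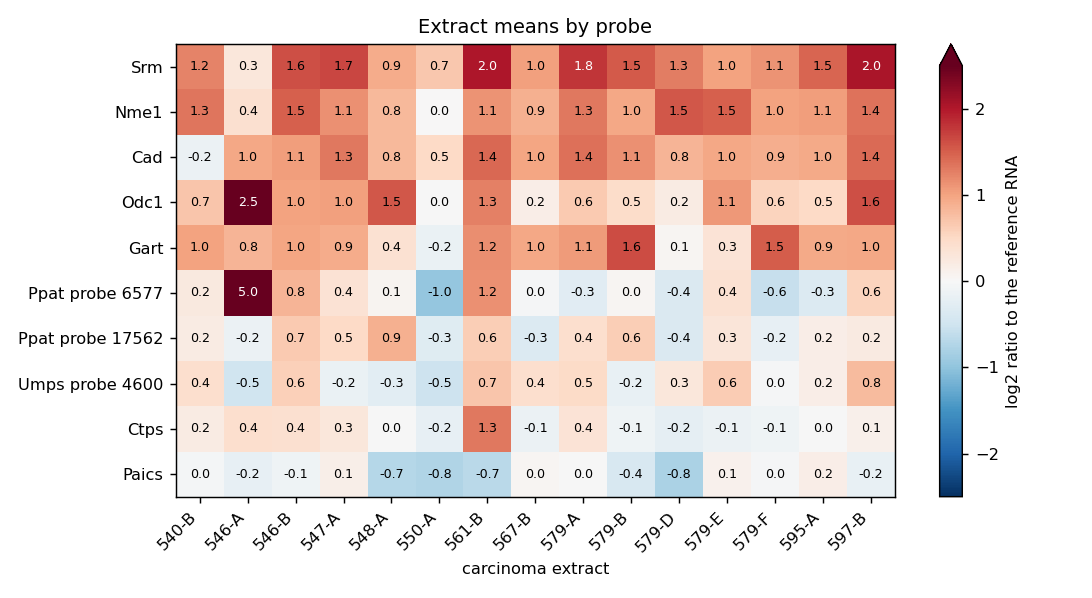
Mean log2 ratio to the reference for each of the 10 tested probes (rows, by mean) in each of the 15 extracts (columns), positive on the Myc side and printed in each cell; the value of 5.0 for Ppat probe 6577 in 546-A lies beyond the colour scale. In 550-A most cells are pale or blue, and in 546-A Odc1 is high while Srm and Nme1 are low.

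Across pairs of members, likeness over the 15 extracts (Pearson r after array medians were subtracted, given as a description) was highest for Odc1 and probe 6577 of Ppat, at 0.80. Both have their highest value in 546-A, an extract whose arrays held few measured values. Nme1 and Umps (probe 4600) followed at 0.75, Srm and Nme1 at 0.58, and Srm and Umps at 0.57. Paics and Ctps lay lowest, at -0.64, with 561-B high for Ctps and low for Paics. Among 6012 other named probes on all 30 arrays, those most like the mean of the member genes were Mtres1 (r = 0.85), Nop2 (0.85), Shmt2 (0.81), Sfxn1 (0.81) and Adi1 (0.81). Nop2 encodes a methylase of ribosomal RNA, Shmt2 and Sfxn1 a mitochondrial enzyme and a serine carrier of one-carbon metabolism, and Adi1 an enzyme of the methionine salvage that follows polyamine synthesis. All pairs share the arrays, so r also holds what an array gives to every probe.

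Number 579 was set against the other 10 extracts. Of the members 0 passed, as did 0% of all probes by limma, and 0 of the 10 had an unadjusted p under 0.05, against 3.57% of all probes. The largest difference was that of Ppat by probe 6577, -0.85 ± 0.69 (579 lower), and without 546-A, whose value rests on 1 array, it was -0.37. Odc1 was 0.59 on average in the 5 extracts of 579 and 1.04 in the others, a difference of -0.45 ± 0.35, which was -0.28 without 546-A. Nme1 was 1.27 and 0.96, a difference of 0.31 ± 0.24, which was 0.20 without 550-A. For each of the 10 probes the ranges of the 2 sets overlapped, and the share of all probes that do so was not counted.

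Progression extracts (550-A and 561-B) were compared with the 12 transition extracts, and with 2 against 12 the precision is low. Again 0 members passed by limma, against 0.00776% of all probes, and 0 had an unadjusted p under 0.05, against 4.07% of all probes. The largest differences were those of Nme1, -0.58 ± 0.33 (0.00 and 1.13 in the progression extracts, 0.40 to 1.55 in the others), Paics, -0.53 ± 0.28 (-0.76 and -0.67, against -0.80 to 0.14), and Ctps, 0.47 ± 0.33 (-0.21 and 1.32, against -0.22 to 0.43). All of these ranges overlapped, and here too the share over all probes was not counted. The differences of Nme1 and Ctps rest on single extracts. Nme1 differed by -0.02 without 550-A and by -1.14 without 561-B, and Ctps by 1.23 and by -0.30, on the other side. With 595-A counted under progression Paics differed by -0.24 and Ctps by 0.28.

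Since these genes are known to follow Myc and growth, each probe was related to Myc and to the mean of 17 proliferation genes over the 15 extracts, with array medians subtracted. None of the 20 relations passed after Benjamini-Hochberg adjustment, where the lowest adjusted p was 0.393 for Pearson's r and 0.143 for Spearman's rho. The largest r was that of Gart with the proliferation genes, 0.55 (permutation p = 0.0344), with a rho of 0.38 (permutation p = 0.164), and it rested on 550-A and 579-E, without which r was 0.14. Nme1 with Myc had an r of 0.52 (permutation p = 0.0476) and a rho of 0.37 (permutation p = 0.179), and r was 0.33 without 579-B and 579-D. Odc1 with the proliferation genes had an r of 0.49 (permutation p = 0.0632) and a rho of 0.65 (permutation p = 0.0106), and r was 0.66 without 550-A and 579-E. On values as deposited 2 relations passed, those of Gart (r = 0.73) and Ctps (r = 0.69) with the proliferation genes, both at an adjusted permutation p of 0.0453. By Spearman's rho Ctps passed there, at 0.85 (adjusted permutation p = 0.003), and Gart did not, at 0.55 (adjusted permutation p = 0.179). Without 550-A and 579-D the r of Ctps was 0.69 and that of Gart 0.37. In values as deposited the level of each array enters both measures.

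The other genes of these pathways, from lists chosen by function, were counted the same way, with 1 probe a gene, where 33.5% of 9919 genes passed toward Myc and 14.9% away from it at a median of 0.16. Members are not in these lists. Of 12 polyamine genes 7 passed toward Myc and 1 away from it, with 4 not passing and a median of 0.43. Arg1, the arginase that supplies ornithine, stood at 3.28 ± 0.39 (limma adjusted p = 3.05e-06), from 1.42 to 6.87. Eif5a, the translation factor modified with spermidine, stood at 1.31 ± 0.08 and Dohh, which completes that modification, at 1.05 ± 0.11, both on the Myc side in 15 of 15 extracts. Amd2, named for the decarboxylase that feeds Srm, stood at 0.86 ± 0.11, and a near-identical copy of that gene may share its probe. Genes that break polyamines down also lay on the Myc side, Smox at 1.06 ± 0.32 and Sat1 at 0.54 ± 0.15, and the antizyme gene Oaz1, whose protein inhibits Odc1, passed at 0.21 ± 0.08 but not after array medians were subtracted (limma adjusted p = 0.428). Mtap, which recycles the by-product of spermidine synthesis, stood at -0.63 ± 0.18. Azin1, by the probe counted (0.33), Arg2 (0.33), Oaz2 (-0.06) and Sms (-0.15) did not pass, though Sms, the spermine synthase gene, passed away from Myc once arrays were centred (limma adjusted p = 0.0074). The other probe of Azin1, an inhibitor of antizyme, passed at 0.74 ± 0.20 (limma adjusted p = 0.00576), as did the mean of both at 0.53.

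Among 6 further genes of de novo purine synthesis 3 passed toward Myc and 2 away from it, with a median of 0.31. Prps1, which makes the sugar phosphate the pathway starts from, stood at 0.79 ± 0.19 and Impdh1, of the branch to GMP, at 0.79 ± 0.10. Atic, the enzyme of the last steps to IMP, stood at 0.40 ± 0.11 over both orientations, but at 0.91 in channel 1 and -0.17 in channel 2, and it no longer passed with each array centred (limma adjusted p = 0.051), where 2 genes passed on each side. The adenylosuccinate synthase genes Adss (-0.33 ± 0.09) and Adssl1 (-0.41 ± 0.09), of the branch to AMP, lay on the opposite side in 14 of 15 extracts each. Both lay farther out with the extract in channel 1, Adss at -0.60 against -0.06 in channel 2, and Adssl1 at -0.66 against -0.16. Adsl, at 0.21 ± 0.14 and by its other probe at 0.30 ± 0.29, did not pass.

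Of 8 pyrimidine genes 4 passed toward Myc and 0 away from it, with a median of 0.27, and 2 of the 4 passed after array medians were subtracted. These were Nme4 (1.01 ± 0.17), a mitochondrial relative of Nme1, and Cmpk2 (0.70 ± 0.17), a mitochondrial nucleotide kinase. Both were higher with the extract in channel 2. Nme4 stood at 0.19 in channel 1 and 1.83 in channel 2, and Cmpk2 at -0.07 and 1.48. The other 2 were Nme2 (0.55 ± 0.18) and Cmpk1 (0.30 ± 0.11). Nme2, the neighbour of Nme1, averaged -2.02 with the extract in channel 1 and 2.85 with it in channel 2, a channel difference larger than that of 99.5% of all probes, and it lost its call once arrays were centred (limma adjusted p = 0.103). Nme7 (0.25), Nme6 (0.22), Ctps2 (0.15) and Dhodh (0.12) did not pass.

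Salvage, one-carbon and deoxynucleotide genes were counted last. Of 19 salvage genes 7 passed toward Myc and 1 away from it, at a median of 0.18. Farthest were Nt5e (1.36 ± 0.32), which makes nucleosides at the cell surface, Ak3 (1.16 ± 0.17) and Uck2 (1.00 ± 0.14), a uridine kinase, against Dck (-0.54 ± 0.10), the deoxycytidine kinase. Of 12 one-carbon genes, whose folates give carbon units to purines, 6 passed toward Myc and 3 away from it. Shmt1 stood at 2.43 ± 0.15, Fpgs at 1.35 ± 0.18 and Mthfd1 at 1.25 ± 0.13, while Psph stood at -0.97 ± 0.16 and the mitochondrial Mthfd1l and Mthfd2 at -0.85 ± 0.18 and -0.43 ± 0.14. Shmt2, also mitochondrial, passed toward Myc at 0.57 ± 0.13 (limma adjusted p = 0.0011). Of 6 genes of deoxynucleotide supply, which dividing cells need for DNA, 1 passed on the Myc side, Samhd1 at 0.47 ± 0.18, which breaks deoxynucleotides down. The median was -0.09 there, and with each array centred on its median 0 passed toward Myc and 2 away from it.

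**Figure D4:**
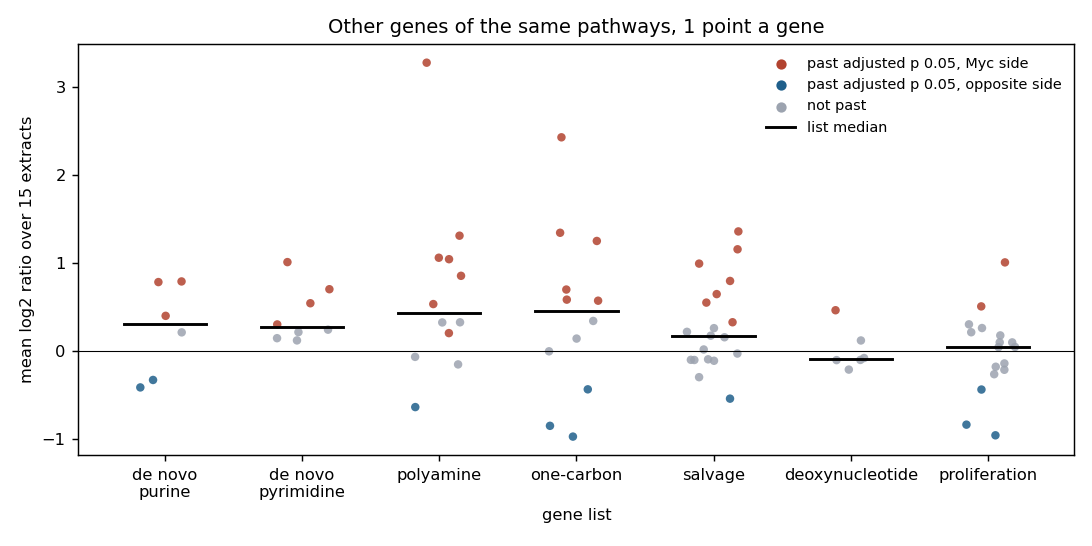
Mean log2 ratio over 15 extracts of each tested gene (points) of 6 pathway lists and of the proliferation list, coloured by whether the gene passed limma's test at an adjusted p of 0.05 and on which side, with the list median (line). The polyamine and one-carbon lists have the highest medians, 0.43 and 0.46, and the deoxynucleotide and proliferation medians lie at -0.09 and 0.05.

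Of 17 proliferation genes 2 passed toward Myc and 3 away from it, at a median of 0.05, and 7 passed away from it with each array centred. Other cell types' markers moved with the comparison as well. All 4 endothelial genes and 1 of 2 adipocyte genes (Fabp4, 2.06 ± 0.39) passed toward Myc, and 4 of 6 fibroblast and 3 of 4 lymphocyte genes away from it. Of 5 genes listed for macrophages 3 passed toward Myc and 1 away from it, and 2 and 2 with each array centred. That 1 was Ptprc (-2.40 ± 0.16), which other leukocytes also express. The part of these cell types in the values of the members was not tested.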

How the data were processed

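The deposited table, per the labels and its header, holds 1 value for each probe of each dual-channel array. That the authors' values are log2 ratios was read from the values. Background correction, normalization, build and the direction of the ratio: not given in the sources used here. The value 16.61 (8839 cells) was taken as a placeholder and, like 95268 blank cells, as missing, which left 84.8% of the table. Ratios of 2 whole numbers, each at most 20, gave 33.6% of the rest when compared at 3 decimals.

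Probes with values on at least 24 of 30 arrays and on 1 array of every extract were tested (12888, for 9919 genes with a probe of 1 symbol) by limma 3.58.1 in R 4.3.3, with Benjamini-Hochberg adjustment over all of them at 0.05. Correlations used 100000 two-sided permutations in Python 3.11.15. The scripts were tested on simulated data. Values were not centred, and the alternative with array medians subtracted takes them over the tested probes. The number of arrays limits the precision.

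Alternatives were other probe filters, single orientations, left-out extracts, the mean of each number and whole-number ratios as missing. The members, lists and tests were chosen with earlier results of these data known. Genes named are the members, Myc, every tested gene of the polyamine, purine and pyrimidine lists, up to 3 genes past the threshold on each side of the salvage, one-carbon and deoxynucleotide lists, and the 5 genes most like the member mean. Some cell type markers are named as well. A gene with several probes was counted by the probe with most values. Probe names come from the platform annotation, which can be old. Promoter windows are RefSeq's, with 250 bases before and 50 after the start.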

Additional observations from a re-analysis of the deposited data

Results flagged for a closer look

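Of 20 groups of extract values examined (10 probes, in the 5 extracts of number 579 and in the 10 of the other numbers), 3 held an extract whose gap to its nearest neighbour was large against the whole range of its group. The limit used gives about 1 in 20 groups such a gap where values are normally distributed. How often groups of the other probes hold one was not counted. Ppat by probe 6577 stood at 5.0 in 546-A, where the next highest of the 10 extracts stood at 1.15. That value comes from 1 array of an extract with few measured values, and the other Ppat probe stood at -0.15 in the same extract. Ctps, the CTP synthase gene, stood at 1.32 in 561-B against 0.43 in the next of the 10 extracts, and both arrays of 561-B were high, at 1.15 and 1.5. Among the extracts of number 579, Ctps stood at 0.35 in 579-A and at -0.11 in the next, with arrays of 0.70 and 0.00.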

How the results depend on the processing

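The 5 members on the Myc side (Srm, Nme1, Cad, Odc1 and Gart) passed in all 15 fits that left out 1 extract, and the count of member probes past the threshold on either side was 5 in each. Over the other alternatives it ran from 4 (of 7 tested, with probes on all arrays, Gart and Nme1 not among them) to 6 (of 10 after array medians were subtracted, and of 6 with whole-number ratios as missing, Gart not among them), and in these 3 it includes Paics on the opposite side. Calls changed for Paics, as given above and with whole-number ratios as missing (limma adjusted p = 0.0457), for Ppat by probe 17562, which passed at 0.28 with whole-number ratios as missing (limma adjusted p = 0.0336), for Gart in channel 1, and for Ctps, which passed in channel 1 and stood at -0.24 in channel 2. The count of members that differ between extracts rose from 0 to 1 after array medians were subtracted and to 1 with probes on all arrays. Against the other numbers, 579 gave 0 members under every alternative run, and Ppat by probe 6577 turned to 0.086 in channel 2. The progression contrast also gave 0 throughout, with Ctps from -0.30 upward when 1 extract was left out (1.23 at most). Of the 10 differences in these 2 contrasts 7 and 8 changed sign under some alternative, and none passed. Relations past the threshold by Pearson's r rose from 0 to 2 on values as deposited. Of 63 pathway genes 35 passed, 28 toward Myc and 7 away from it, with array medians subtracted 23 and 12, and with the mean over the probes of a gene 30 and 7. The contrast of progression rests on 2 extracts, which limits its precision. No paired analysis was possible because the extracts form 1 group and each is its own pair of arrays.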
